A study of Capra hircus with 9 samples.

Results

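The 10 Toll-like receptor genes of the goat, TLR1 to TLR10, were followed in the submandibular gland of female Lubo goats, healthy animals that were kept under the same conditions and differed in age. Members were taken from the transcript table by name. A RefSeq transcript counted for a receptor when its gene was that receptor in RefSeq, and a newly assembled transcript when both its gene name and its product named the receptor. This gave 28 transcripts, 22 from RefSeq and 6 newly assembled by the authors. Their counts were summed to 10 of the 21230 named genes. The glands came from goats slaughtered at an age of 1 month, 12 months or 24 months, with 3 libraries per age and 1 goat per library. Total RNA was taken from whole gland, so that fewer cells of a type and less RNA per cell cannot be told apart.

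Toll-like receptors are membrane proteins that bind conserved molecules of microbes and start an inflammatory or antiviral response. TLR1, TLR2, TLR6, TLR10, TLR4 and TLR5 sit at the cell surface, where they bind lipoproteins, lipopolysaccharide or flagellin, and TLR3, TLR7, TLR8 and TLR9 sit in endosomes, where they bind nucleic acids. Most of them signal through the adaptor MYD88, whereas TLR3 uses TICAM1 (TRIF), and both branches end in NF-κB and interferon regulatory factors. In a salivary gland they are known mainly from resident leukocytes, and some are also found in epithelium.

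Total expected counts were between 11546808 and 17586065 in the 1-month libraries, between 18231894 and 21065278 at 12 months and between 22040776 and 24901065 at 24 months. Values are given as CPM, expected counts scaled to a common library size with TMM, a correction for library composition. At these depths 3 counts corresponded to 0.12 to 0.26 CPM, which covers counting error only. Transcript lengths were not used here, so the levels of different receptors are not compared with each other. The labelled tissue was checked against marker genes. The 9 markers of salivary acini and ducts summed to 26476 CPM in 1-month replicate 1, 315 in replicate 2 and 19751 in replicate 3, against 98051 to 181057 in the older libraries. In 1-month replicate 2 the water channel AQP5 was at 0.508 CPM, against 133 to 1074 in the other 8 libraries, and so this library goes against its tissue label. The 9 genes of T cells and thymocytes summed to 3024, 10080 and 1484 CPM in 1-month replicates 1, 2 and 3 and to no more than 20.4 CPM at the older ages. Genes of thymic epithelium showed the same order, with 179, 725 and 71.4 CPM against at most 2.61. Both sums were higher in each 1-month library than in any older one. Age and thymic content therefore cannot be told apart in the comparisons with 1 month, also without replicate 2. Neutrophil genes summed to 11.8, 53.6 and 720 CPM in the same 3 libraries. Values without replicate 2 are therefore given for the named receptors and signalling genes whose call against 1 month changed when it was left out.

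Between 1 and 12 months, 1 of the 10 receptors passed the test, which required an adjusted p below 0.05 together with a log2 fold change beyond 2 in either direction, and this was TLR9, which was lower at 12 months. Of all 14623 genes tested, 11.5% passed, and 9.36% passed as lower at 12 months. From 1 to 24 months none of the 10 passed, where 13.2% of 14697 genes did (9.01% as lower at 24 months). Between 12 and 24 months none passed, and neither did any of the 14078 genes tested (0%). With all 3 libraries per age, the share of receptors called was thus no higher than that of all genes in any comparison. The median log2 fold change of the 10 receptors was -0.19, -0.45 and 0.13 in the 3 comparisons, older minus younger age, beside -0.02, -0.01 and 0.04 over all genes tested. At an unadjusted p under 0.05, 2, 3 and 1 receptors were counted, where 37.9%, 34.3% and 11% of all genes were.

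**Figure D1:**
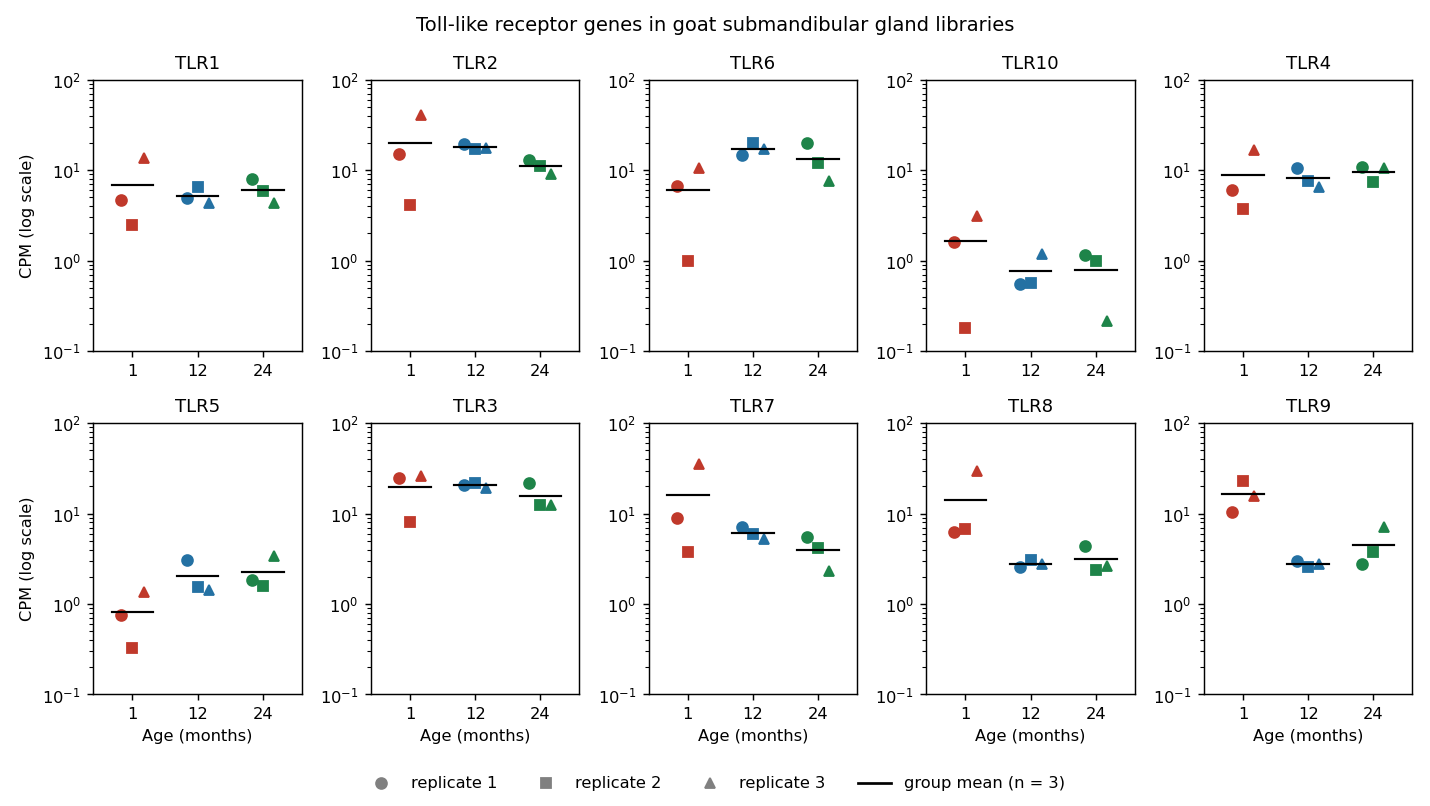
Level of each of the 10 Toll-like receptor genes in CPM on a log axis against age in months. Each point is 1 library, its shape gives the replicate number and the black bar is the mean of 3 libraries. The 1-month points of TLR9 (10.4 to 23.1 CPM) lie above all points at 12 and 24 months (2.55 to 7.04 CPM), and for TLR2 the 1-month points spread around the others. For TLR7 the 1-month points spread around the 12-month ones, and 24-month replicate 3 (2.33 CPM) lies below every 1-month point.

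TLR7, TLR8 and TLR9, receptors of nucleic acids in endosomes, held the lowest log2 fold changes in both comparisons with 1 month. TLR9 binds DNA with unmethylated CpG and is known from B cells and plasmacytoid dendritic cells. It was at 10.4, 23.1 and 15.5 CPM in 1-month replicates 1, 2 and 3, at 2.98, 2.55 and 2.8 CPM at 12 months and at 2.76, 3.78 and 7.04 CPM at 24 months. All 3 libraries at 1 month were above all 6 of the older goats, and the highest value was in replicate 2, the library with almost no acinar transcripts. The group means were 16.3 ± 6.36, 2.78 ± 0.215 and 4.53 ± 2.24 CPM (SD, n = 3 each). TLR9 fell by 2.51 on the log2 scale between 1 and 12 months (SE 0.41, adjusted p = 0.0125 by edgeR's quasi-likelihood test). Between 1 and 24 months its log2 fold change of -1.74 (SE 0.53) did not pass (adjusted p = 0.0562 in the same test), although the groups did not overlap. The means at 12 and 24 months differed by 0.74 (SE 0.43, adjusted p = 0.442), so the order of these 2 ages was within the spread.

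Without 1-month replicate 2 TLR9 still passed the test against 12 months, with a log2 fold change of -2.21 (SE 0.27, adjusted p = 0.00216). The call was lost when any single 12-month library was left out, with adjusted p of 0.0676, 0.0753 and 0.0744 by edgeR and log2 fold changes of -2.54, -2.43 and -2.51. In those 3 fits the number of all genes called fell to 0, 67 and 110. Most TLR9 counts, 79.3% over the 9 libraries, lay on the newly assembled transcript rather than on the RefSeq one. The new transcript was at 9.83, 16.7 and 11.7 CPM at 1 month, at 2.6, 1.57 and 2.09 CPM at 12 months and at 1.78, 3.78 and 6.27 CPM at 24 months. The RefSeq transcript was at 0.612, 6.35 and 3.81 CPM at 1 month and at no more than 0.987 CPM at the older ages. When transcripts were tested one by one, the new one passed between 1 and 12 months (log2 fold change -2.56, SE 0.478, adjusted p = 0.0495 by edgeR), and the RefSeq one did not (-2.31, SE 1.02, adjusted p = 0.247). With RefSeq transcripts alone in the table, the log2 fold change of TLR9 was -2.34 and its adjusted p was 0.114.

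**Figure D2:**
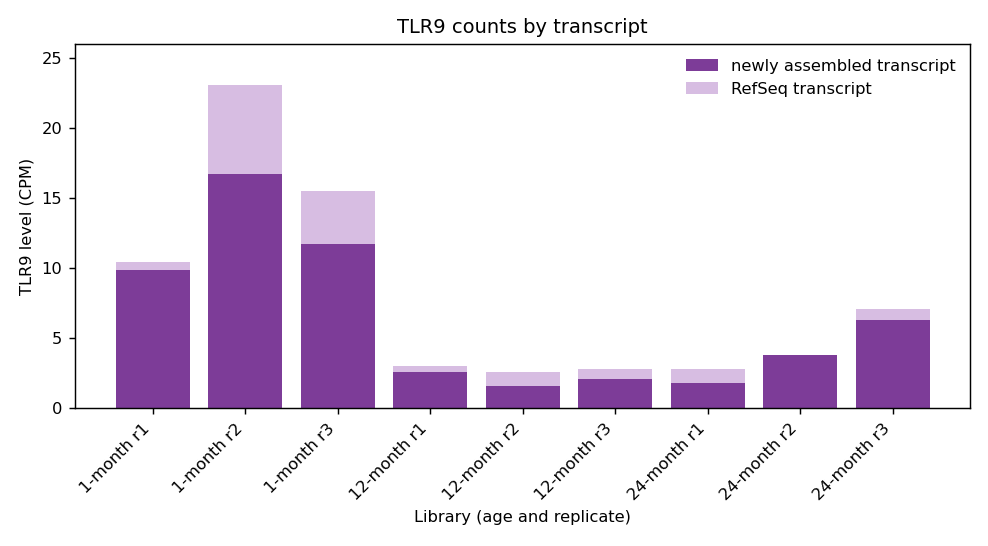
TLR9 level in CPM (bars, from 0) in each of the 9 libraries, split into counts on the newly assembled transcript (dark) and on the RefSeq transcript (light). In 1-month replicate 2 the RefSeq transcript holds 6.35 of 23.1 CPM, and in 24-month replicate 2 it holds 0 CPM.

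TLR8, a receptor of single-stranded RNA found mainly in monocytes, macrophages and neutrophils, was at 6.24, 6.79 and 29.5 CPM in the 3 libraries at 1 month. At 12 months it was at 2.56, 3.06 and 2.75 CPM, and at 24 months at 4.38, 2.38 and 2.65 CPM. The 1-month libraries did not overlap with the older ones, and replicate 3 was more than 4 times as high as the other two. The log2 fold change was -2.25 between 1 and 12 months (SE 0.66, adjusted p = 0.0558 by edgeR's quasi-likelihood test) and -2.04 between 1 and 24 months (SE 0.68, adjusted p = 0.0708), and neither passed. Without 1-month replicate 2 both did, with -2.67 (SE 0.61, adjusted p = 0.0154) and -2.39 (SE 0.61, adjusted p = 0.0193). Without replicate 3 both values were nearer to 0, at -1.21 (adjusted p = 0.0966) and -0.97 (adjusted p = 0.326). The means at 12 and 24 months were 2.79 ± 0.256 and 3.14 ± 1.09 CPM (SD, n = 3 each), and the 12-month values lay within the 24-month range.

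TLR7 also binds single-stranded RNA and lies next to TLR8 in the RefSeq annotation of assembly ARS1.2. Its values at 1 month were 9.03, 3.77 and 35.5 CPM, so that replicate 3 was again the highest and replicate 2 was below all 3 libraries at 12 months. At 12 months it was at 7.16, 5.96 and 5.28 CPM and at 24 months at 5.46, 4.19 and 2.33 CPM. The groups overlapped in each comparison. The log2 fold change was -1.3 (SE 0.75, adjusted p = 0.237 by edgeR) between 1 and 12 months and -1.87 (SE 0.78, adjusted p = 0.131) between 1 and 24 months. Without replicate 2 these became -1.85 (adjusted p = 0.0332) and -2.36 (adjusted p = 0.0173), and without replicate 3 they became -0.06 (adjusted p = 0.944) and -0.59 (adjusted p = 0.601). The size of the TLR7 difference thus rested mostly on replicate 3. The summed level of TLR7, TLR8 and TLR9 was 25.7, 33.6 and 80.4 CPM at 1 month and between 10.4 and 12.7 CPM in the 6 older libraries.

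The ratio of TLR9 counts to TLR7 counts within a library was 1.16 in 1-month replicate 1, 6.12 in replicate 2 and 0.436 in replicate 3. At 12 months it stayed between 0.417 and 0.53, and at 24 months it was 0.506, 0.903 and 3.02. The ratio therefore differed among the 1-month libraries, and at 24 months it was highest in replicate 3.

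TLR3 binds double-stranded RNA and is expressed by epithelium, fibroblasts and dendritic cells. It was at 24.6, 8.09 and 25.8 CPM at 1 month, at 20.6, 21.7 and 19.4 CPM at 12 months and at 21.7, 12.4 and 12.6 CPM at 24 months. The lowest of the 9 libraries was 1-month replicate 2, and the groups overlapped. The log2 fold changes of 0.16 (SE 0.43), -0.2 (SE 0.5) and -0.36 (SE 0.28) in the 3 comparisons had adjusted p between 0.509 and 0.807 by edgeR. The levels at the 3 ages were thus within their spread.

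The cell surface receptors that pair with each other come next. TLR2 pairs with TLR1 or TLR6 to bind bacterial lipoproteins, and TLR10 is a related receptor that is thought to dampen signalling. TLR2 was at 15.1, 4.14 and 41 CPM in 1-month replicates 1, 2 and 3. At 12 months it was at 19.3, 17 and 17.7 CPM and at 24 months at 13.1, 11.1 and 9.16 CPM. The 1-month values lay on both sides of the 12-month ones, while each 24-month library was below each 12-month library. TLR2 was the only receptor whose groups did not overlap between 12 and 24 months, where 15.4% of all genes tested did not overlap and 7.49% were lower at 24 months in this way. Its log2 fold change there was -0.65 (SE 0.25, unadjusted p = 0.0281 and adjusted p = 0.426 by edgeR). Against 1 month it was -0.06 at 12 months (SE 0.7, adjusted p = 0.954) and -0.71 at 24 months (SE 0.7, adjusted p = 0.511).

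TLR6 was at 6.65, 0.993 and 10.6 CPM at 1 month, at 14.6, 20.1 and 17.3 CPM at 12 months and at 20.2, 11.9 and 7.64 CPM at 24 months. Each 12-month library was above each 1-month library, and the 24-month libraries overlapped with both ages. The log2 fold change between 1 and 12 months was 1.61 (SE 0.72, adjusted p = 0.149 by edgeR's quasi-likelihood test). Without replicate 2, in which TLR6 was lowest, it was smaller and had an adjusted p of 0.0251 (1.02, SE 0.27), which stays under the fold required for a call. Between 1 and 24 months it was 1.27 (SE 0.76, adjusted p = 0.271).

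TLR1 was at 4.63, 2.45 and 13.7 CPM at 1 month, at 4.93, 6.46 and 4.3 CPM at 12 months and at 7.91, 5.87 and 4.33 CPM at 24 months. The 3 ages overlapped, with adjusted p between 0.701 and 0.958 by edgeR and log2 fold changes of -0.32 (SE 0.62), -0.06 (SE 0.64) and 0.25 (SE 0.35). Of its counts 97.8% were on a newly assembled transcript. TLR10 was the receptor with the fewest counts, with 3.4 in 1-month replicate 2, 4 in 24-month replicate 3 and 47.8 in 1-month replicate 3. It was at 1.61, 0.181 and 3.13 CPM at 1 month, at 0.554, 0.568 and 1.17 CPM at 12 months and at 1.14, 0.989 and 0.212 CPM at 24 months. The ages overlapped, and the log2 fold changes against 1 month were -0.99 (SE 0.93, adjusted p = 0.454 by edgeR) and -0.93 (SE 1.02, adjusted p = 0.558). With 1-month replicate 2 left out they were -1.62 (adjusted p = 0.0635) and -1.49 (adjusted p = 0.202).

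TLR10, TLR1 and TLR6 lie almost side by side in the RefSeq annotation and are similar in sequence, so that the split of reads between them is uncertain. Their summed level was 12.9, 3.63 and 27.4 CPM at 1 month, 20.1, 27.1 and 22.7 CPM at 12 months and 29.3, 18.7 and 12.2 CPM at 24 months. The ratio of TLR2 counts to TLR6 counts was 2.27, 4.17 and 3.88 at 1 month and between 0.646 and 1.32 in the older libraries, so that TLR2 and its partner TLR6 did not keep 1 ratio over the ages.

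TLR4, the receptor of lipopolysaccharide, was at 6.05, 3.7 and 16.6 CPM at 1 month, at 10.5, 7.66 and 6.54 CPM at 12 months and at 10.8, 7.39 and 10.5 CPM at 24 months. The older libraries lay within the range of the 1-month ones. The log2 fold changes were -0.01 (SE 0.56), 0.26 (SE 0.57) and 0.26 (SE 0.3), with adjusted p between 0.639 and 0.989 by edgeR.

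TLR5, the receptor of flagellin, was at 0.766, 0.327 and 1.35 CPM at 1 month. It was at 3.11, 1.53 and 1.44 CPM at 12 months and at 1.86, 1.57 and 3.39 CPM at 24 months, above each 1-month library. The log2 fold changes of 1.37 (SE 0.65, adjusted p = 0.167 by edgeR) and 1.6 (SE 0.72, adjusted p = 0.155) did not pass. These values rest on 6.1 to 20.6 counts per library at 1 month and 26.2 to 64 at the older ages.

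In all, 4 of 10 receptors did not overlap between 1 and 12 months, TLR5 and TLR6 being higher and TLR8 and TLR9 lower at 12 months, where 53.6% of all genes tested did not overlap (26.7% higher and 26.9% lower). Against 24 months 3 of 10 did not overlap, TLR5 being higher and TLR8 and TLR9 lower, where 43.7% of all genes did not (20.3% higher and 23.4% lower). Both comparisons use the same 1-month libraries. Without 1-month replicate 2, 2 of 10 receptors were called between 1 and 12 months (TLR8 and TLR9), where 12.3% of genes were called. In the other comparison 2 were called as well (TLR7 and TLR8), where 14% of genes were.

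**Figure D3:**
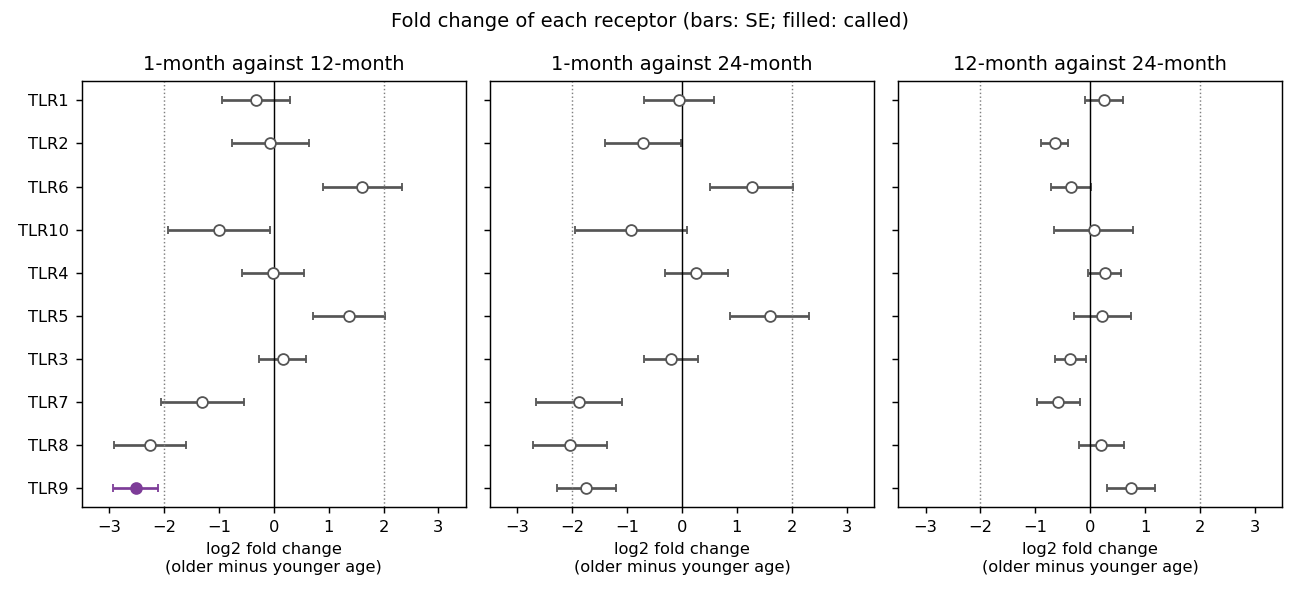
Log2 fold change of each receptor, older minus younger age, in the 3 comparisons, with SE as bars (3 libraries per age). The filled point is the only called value, TLR9 at -2.51 between 1 and 12 months, and the dotted lines at -2 and 2 mark the fold required for a call.

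The levels of the receptors were set beside marker genes of the cells that the gland samples could hold. Of all genes tested, 9.36% were called as lower at 12 months than at 1 month and 9.01% as lower at 24 months. The 10 macrophage and monocyte genes summed to 522, 582 and 1900 CPM at 1 month and to 180 to 304 CPM at the older ages, and 4 of 10 were called between 1 and 12 months, all lower at 12 months. MARCO, a scavenger receptor of macrophages, was at 14, 0.581 and 87.4 CPM at 1 month and at 0 in all 6 older libraries. It was not called at 12 months (adjusted p = 0.0525 by edgeR) but was at 24 months (adjusted p = 0.0267). In this list CD14, AIF1 and VSIG4 overlapped between 1 and 12 months, and the other 7 genes were lower without overlap, as were 26.9% of all genes. The 7 neutrophil genes, which summed to 1.8 to 7.92 CPM at the older ages, were highest in 1-month replicate 3, where S100A12 was at 346 CPM. Of the 10 receptors 7 had their highest level in that library (TLR1, TLR2, TLR3, TLR4, TLR7, TLR8 and TLR10), as had all 10 macrophage and monocyte genes and the sums of endothelial and fibroblast genes. The share of all genes that were highest there was not computed, so this count has no background beside it. Of 6 neutrophil genes tested, 2 were called as lower at 12 months and 5 as lower at 24 months. Conventional dendritic cell genes summed to 18.7, 30.4 and 62.3 CPM at 1 month and to 3.66 to 10.7 CPM later. Of 4 tested, 3 were called as lower at 12 months and 1 as lower at 24 months. The 7 B cell genes summed to 56.9, 325 and 144 CPM at 1 month and to 8.05 to 24.7 CPM later, with 5 of 7 called as lower at 12 months. The peak of this sum in replicate 2 came from CD79A, at 33.2, 270 and 35.3 CPM. Without CD79A the sum was 23.8, 55.3 and 109 CPM, and 5 of the 7 genes were highest in replicate 3, whereas TLR9 was highest in replicate 2. The genes of plasmacytoid dendritic cells, without LILRA4 and CLEC4C, which were not matched, summed to 147, 151 and 193 CPM at 1 month and to 103 to 130 CPM later. Of these 5 genes 2 were called as lower at 12 months, SPIB and IL3RA, and SPIB was at 7.88, 19.7 and 16.7 CPM at 1 month and at no more than 0.639 CPM later. The other 3, IRF7, TCF4 and PACSIN1, were not called, with log2 fold changes of -1.85, -0.03 and 0.19. The macrophage, neutrophil, conventional dendritic cell and B cell sums, SPIB and IL3RA were higher at 1 month, as were the values of TLR8 and TLR9, and their part in those results was not tested. The genes of T cells and thymocytes (9 of 9 called) and of thymic epithelium (4 of 4 tested called) were lower at 12 months as well, and their part was not tested either. Between 12 and 24 months only 5 of these 9, 1 of 5 thymic epithelium and 1 of 7 neutrophil genes passed the filter on low counts. SPIB, MARCO, BATF3, MS4A1 and BLK did not pass it there either. The genes that failed there but were tested against 1 month entered through their 1-month counts, so the filter itself favoured such calls. The 5 endothelial genes, by contrast, summed to 351 to 639 CPM at 1 month and to 286 to 567 CPM later, and none was called. The 5 fibroblast genes summed to 3248, 845 and 3807 CPM and to 427 to 1005 CPM later, with 1 of 5 called as lower at 12 months.

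**Figure D4:**
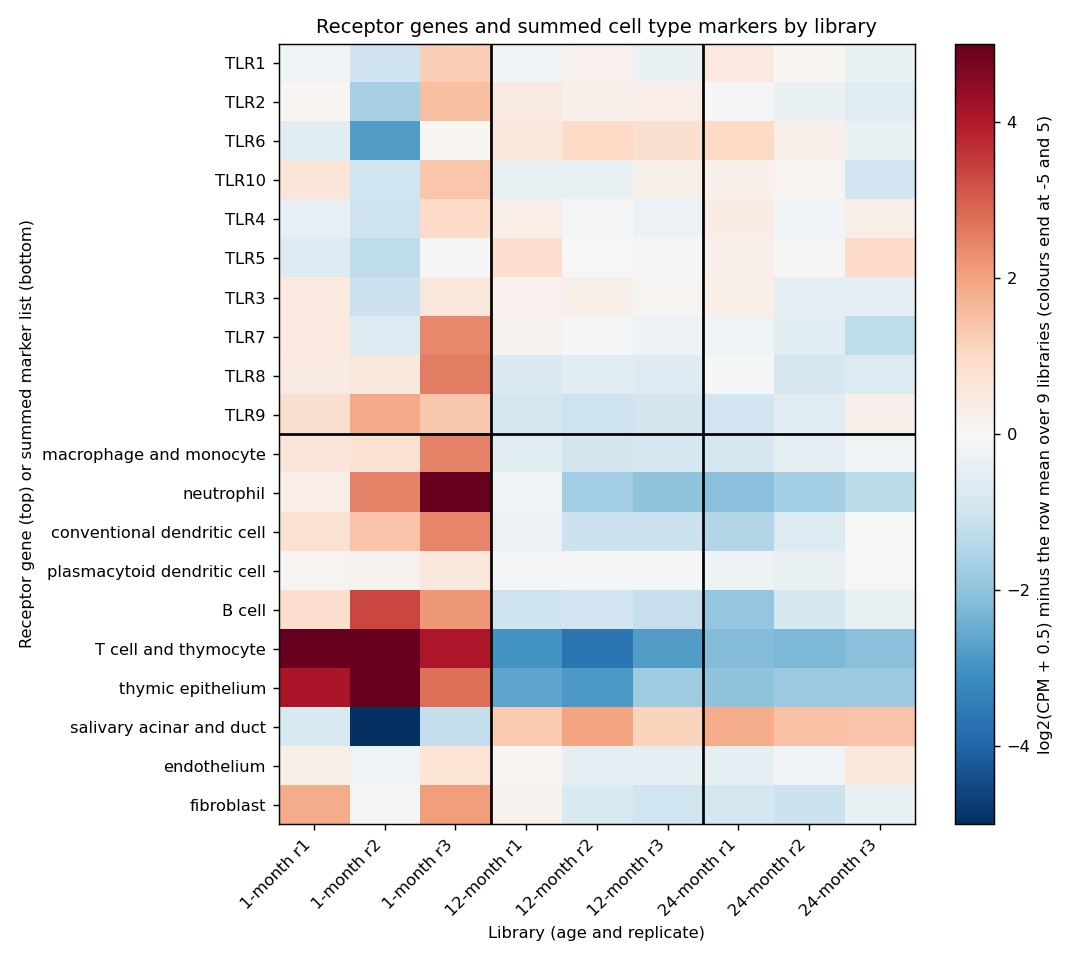
Receptor genes (top) and summed cell type markers (bottom) in the 9 libraries, as log2(CPM + 0.5) minus the mean of the row. Of the 10 receptors 7 are highest in 1-month replicate 3, as are the macrophage, neutrophil, dendritic cell, endothelial and fibroblast sums, while TLR9 is highest in 1-month replicate 2, which also has the highest sum of T cell and thymocyte genes.

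As a description of likeness, Pearson's r of log2(CPM + 0.5) over the 9 libraries was computed between receptors and with 13854 other genes tested in all comparisons. These points share library composition and age, and genes are not independent replicates. Among receptors the highest r were those of TLR2 with TLR3 (0.88), TLR1 with TLR4 (0.84), TLR7 with TLR10 (0.84) and TLR7 with TLR8 (0.83). The lowest was that of TLR6 with TLR9 (-0.85). TLR8 with TLR9 had r = 0.71, and TLR7 with TLR9 had r = 0.29. The 3 genes most like TLR9 were PLEKHO2 (r = 0.99), MAP4K1 (0.989) and RGS19 (0.989). Those most like TLR8 were ZNF366 (0.974), LOC102171786 (0.973) and CD244 (0.97), and those most like TLR7 were SUCNR1 (0.985), CCDC141 (0.979) and CLEC12A (0.978). TLR3 was most like CALCRL (0.995), RBMS3 (0.993) and CC2D2A (0.991). For TLR2 they were LOC102176126 (0.98), RASGRP3 (0.975) and SKAP2 (0.97). TLR6 was most like TRMO (0.992), MDFIC (0.991) and TGFA (0.991). The genes most like TLR1 were IFIH1 (0.975), LYN (0.96) and LOC102180291 (0.952). TLR4 was most like HEY1 (0.939), CHD7 (0.927) and PTPRJ (0.905), TLR5 was most like TIMP2 (0.943), JAG1 (0.943) and TBKBP1 (0.942), and TLR10 was most like MB21D2 (0.942), SWAP70 (0.925) and IFIT5 (0.923).

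The other genes of Toll-like receptor signalling were read from a list of 72, of which 71 were found in the table and 66 were tested between 1 and 12 months. Of these 66, 7 were called, all lower at 12 months (10.6%, beside 11.5% of all genes). Against 24 months 4 of 64 were called, all lower at 24 months (6.25%, beside 13.2%), and between 12 and 24 months none of 62 was. The median log2 fold change was -0.65 and -0.38 in the comparisons with 1 month and 0.18 between 12 and 24 months. Without 1-month replicate 2 the counts were 10 of 67 and 6 of 66, again all lower, where 12.3% and 14% of all genes were called. Without 1-month replicate 3 they were 4 of 66 and 4 of 65, where 9.36% and 9.9% of all genes were called. Without any single 12-month library none of the listed genes was called between 1 and 12 months. Of all genes, 0%, 0.445% and 0.73% were called without 12-month replicates 1, 2 and 3. Between 1 and 24 months there were 1, 0 and 0 calls without 24-month replicates 1, 2 and 3. There 8.91%, 3.63% and 2.03% of all genes were called.

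**Figure D5:**
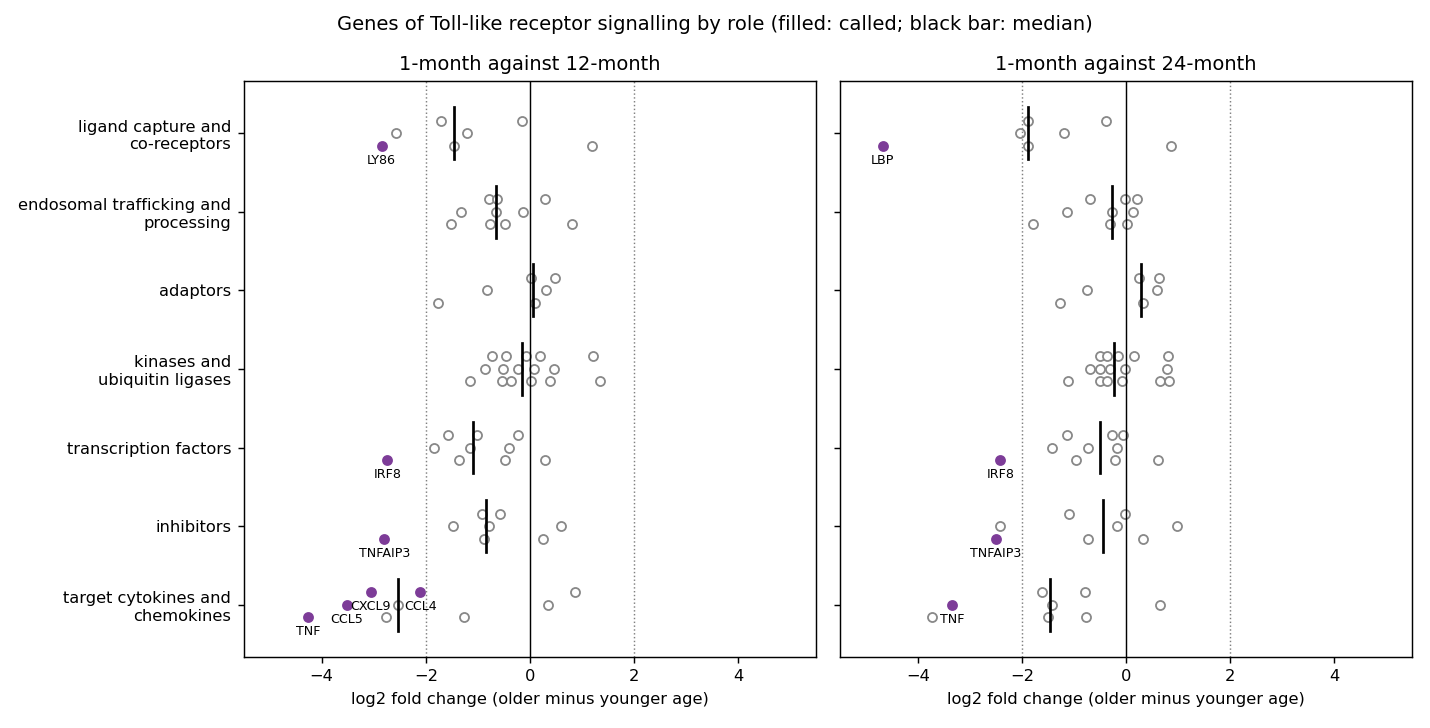
Log2 fold change, older minus younger age, of the listed signalling genes by role, each point being 1 gene. Filled points were called and are named, black bars are medians of the role, and all 7 called genes in the left panel and all 4 in the right panel lie below -2.

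Among 7 proteins that capture ligands or assist the receptors at the surface, 1 was called in each comparison with 1 month. This was 14.3% of those tested each time, beside 11.5% (12 months) and 13.2% (24 months) of all genes. LY86 (MD-1), the partner of the receptor-like protein CD180, was at 3.06, 8.93 and 14.2 CPM at 1 month and at 0.852, 1.99 and 0.631 CPM at 12 months. It fell by 2.85 on the log2 scale (SE 0.73, adjusted p = 0.0389 by edgeR's quasi-likelihood test). CD180 itself was at 2.33, 1.81 and 7.33 CPM and then at 1.02, 0.568 and 0.226 CPM, and its log2 fold change of -2.57 did not pass (SE 0.79, adjusted p = 0.0633 by edgeR), but it did without 1-month replicate 2 (-2.98, adjusted p = 0.0224). LBP, the plasma protein that carries lipopolysaccharide to CD14, was at 5.4, 1.85 and 2.16 CPM at 1 month and at 0, 0.116 and 0.212 CPM at 24 months, which is 0 to 4 counts. Its log2 fold change was -4.68 (SE 1.03, adjusted p = 0.0196 by edgeR). LBP did not pass the filter on low counts between 12 and 24 months. It thus entered this test through its 1-month counts, which favoured a call as lower. At 12 months LBP was at 2.56 CPM in replicate 1 and at or below 0.135 CPM in the other two. HMGB1, a nuclear protein that can act as a ligand of TLR4, had an adjusted p of 0.0296 at a log2 fold change of -1.46 and was chosen after its values were seen.

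None of the 10 genes that bring the endosomal receptors to their place or cleave them was called with all libraries. LGMN, a protease that cleaves TLR9, was at 70.8, 172 and 136 CPM at 1 month and at 40.5, 53.5 and 52 CPM at 12 months (log2 fold change -1.33, SE 0.39, adjusted p = 0.0562 by edgeR). The protease CTSS was at 82.2, 23.7 and 187 CPM and at 36.2, 31.7 and 28.8 CPM (-1.51, SE 0.65, adjusted p = 0.137). Without 1-month replicate 2, its lowest library, CTSS was called as lower at 12 months (-2.06, adjusted p = 0.00505 by edgeR) and at 24 months (-2.28, adjusted p = 0.00891). No adaptor was called. The 2 adaptors with the largest values were SARM1, which restrains TRIF signalling (-1.77, SE 0.56, adjusted p = 0.07), and TICAM2, which links TLR4 to TRIF (-0.82, SE 0.38, adjusted p = 0.159). Of 16 kinases and ubiquitin ligases none was called, and the largest values were those of TBK1, the kinase of IRF3 (1.35, SE 0.74, adjusted p = 0.218), and TAB3, a partner of the kinase TAK1 (1.21, SE 0.37, adjusted p = 0.0618). TBK1 was at 15.5, 2.18 and 27 CPM at 1 month, and without replicate 2 its log2 fold change was 0.74 (adjusted p = 0.0496 by edgeR), below that of TAB3 (0.83, adjusted p = 0.00568).

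Of 10 transcription factors 1 was called, IRF8, which is needed for dendritic cells and is also used by B cells. This is 10% of those tested at each older age, beside 11.5% (12 months) and 13.2% (24 months) of all genes. IRF8 was at 20.9, 25.3 and 61.8 CPM at 1 month, at 4.77, 4.94 and 5.64 CPM at 12 months and at 4.08, 6.92 and 7.31 CPM at 24 months. Its log2 fold change against 1 month was -2.74 (SE 0.46, adjusted p = 0.0137 by edgeR) at 12 months and -2.42 (SE 0.54, adjusted p = 0.02) at 24 months. IRF7, the factor of type I interferon downstream of TLR7 and TLR9 and also 1 of the plasmacytoid dendritic cell markers above, had a log2 fold change of -1.85 at 12 months (SE 0.68, adjusted p = 0.0997). IRF3 had -1.57 with an adjusted p of 0.0343, under the fold required, and was chosen after its values were seen.

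Of 8 inhibitors 1 was called, TNFAIP3 (A20), an enzyme that edits ubiquitin and ends NF-κB signalling. At each older age this is 12.5% of those tested, beside 11.5% (12 months) and 13.2% (24 months) of all genes. TNFAIP3 was at 79.5, 196 and 71 CPM at 1 month, at 15.9, 14.9 and 17.7 CPM at 12 months and at 13, 14.1 and 29.7 CPM at 24 months. The highest value was in 1-month replicate 2, and no older library reached the 1-month range. The log2 fold changes were -2.8 (SE 0.48, adjusted p = 0.0141 by edgeR) and -2.51 (SE 0.58, adjusted p = 0.0221). Without replicate 2 they were -2.21 (adjusted p = 0.000314 by edgeR) and -1.89 (adjusted p = 0.00928), so that the call at 24 months was lost under the fold required. IL1RL1, a receptor that restrains TLR4 signalling, had -1.47 at 12 months (SE 1.02, adjusted p = 0.317). At 24 months its log2 fold change of -2.42 did not pass (SE 0.95, adjusted p = 0.112 by edgeR). Without 1-month replicate 2 it did (-2.95, SE 0.77, adjusted p = 0.021 by edgeR). IRAK3, an inhibitor of the IRAK kinases, had an adjusted p of 0.048 at -0.89 and was chosen after its values were seen.

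The target cytokines and chemokines held 4 of the 7 calls between 1 and 12 months, out of 9 tested, and 1 of 8 between 1 and 24 months. That was 44.4% and 12.5% of those tested, where 11.5% and 13.2% of all genes were called. TNF was at 3.94, 18.8 and 6.21 CPM at 1 month, at 0.682, 0.397 and 0.361 CPM at 12 months and at 0.841, 1.16 and 0.689 CPM at 24 months, with its highest value in 1-month replicate 2. Its log2 fold changes were -4.26 (SE 0.77, adjusted p = 0.0155 by edgeR) and -3.34 (SE 0.74, adjusted p = 0.0198). CCL5, a chemokine of T cells and NK cells, was at 5.4, 6.57 and 5.75 CPM at 1 month and at 0.511, 0.34 and 0.631 CPM at 12 months (-3.52, SE 0.45, adjusted p = 0.00822). At 24 months CCL5 was at 2.52, 2.44 and 4.5 CPM, above each 12-month library, with a log2 fold change of 2.72 between the older ages (SE 0.53, unadjusted p = 0.000514, adjusted p = 0.426 by edgeR's quasi-likelihood test). DESeq2 and edgeR's exact test called this rise of CCL5, as did the quasi-likelihood test without 24-month replicate 1.

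CXCL9, a chemokine induced by interferon gamma, was at 20.6, 9.98 and 82.8 CPM at 1 month and at 2.13, 4.09 and 6.45 CPM at 12 months. It fell by 3.06 on the log2 scale (SE 0.85, adjusted p = 0.0488 by edgeR), and the groups overlapped at 24 months, with 22.5, 6.34 and 5.35 CPM. DESeq2, edgeR's exact test and the fit of all 9 libraries also called CXCL9 at 12 months. The call was lost with upper-quartile scaling, RefSeq transcripts alone or a replicate block, and without 1-month replicate 1 or 3. CCL4, which was found by its product name, was at 1.84, 3.3 and 4.69 CPM at 1 month and at 0.596, 0.965 and 0.631 CPM at 12 months (-2.11, SE 0.54, adjusted p = 0.0395). IL6, IL10, IL12A, IL12B and IL1A did not pass the filter on low counts in this comparison. IL6 was detected in 1-month replicate 2 alone, at 0.254 CPM. MYD88, the adaptor that most receptors share, was at 33.6, 45 and 68 CPM at 1 month and at 53.8, 48.8 and 46.4 CPM at 12 months, a log2 fold change of 0.09 (SE 0.3, adjusted p = 0.843). It is given as the common adaptor and was chosen after its values were seen.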

How the data were processed

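RNA of 9 submandibular glands, 3 per age, was sequenced by the authors from strand-marked libraries depleted of ribosomal RNA. Per the labels and the methods, reads were filtered, ribosomal RNA reads were removed with Bowtie2 2.2.8, the rest was aligned to the goat genome with TopHat2 2.1.1, and transcripts were assembled with Cufflinks. The genome build and the strand setting of the counting are not given in the sources used here. The deposited values are expected counts (estimated counts by RSEM) per transcript, not normalized, and 3.49% of the values above 0 are whole numbers. Of 52739 transcripts, 436 name no gene (0.251% to 6.006% of counts per library) and were left out.

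Expected counts were summed per gene, rounded and tested with edgeR 4.0.16 (R 4.3.3) in the 6 libraries of each pair of ages, with filterByExpr, TMM and the quasi-likelihood test (two-sided, Benjamini-Hochberg adjustment over all genes tested). Calls needed an adjusted p below 0.05 and a log2 fold change beyond 2 in either direction. The authors' FPKM threshold was not applied. CPM values use TMM sizes over all 9 libraries. The pipeline was tested on simulated data. Names came from the table and RefSeq (ARS1.2), with no coordinates. A product name was needed to find CCL4, S100A12, FCAR and CD163. CCL3 is split between similar copies, and IFNB1 was not matched. Alternatives were DESeq2 1.42.0, edgeR's exact test, other scalings, no filter, RefSeq transcripts alone, single transcripts, all 9 libraries in 1 fit, a replicate block and leaving out each library.

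All 10 receptors were to be named, as were listed signalling genes that were called, and by role the 2 with the largest absolute log2 fold change between 1 and 12 months, and the 3 genes most like each receptor. Members and lists were chosen with earlier results of these data known.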

Additional observations from a re-analysis of the deposited data

How the results depend on the processing

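The count of receptors called between 1 and 12 months, 1 as reported, was 2 with DESeq2's Wald test, with edgeR's exact test and with all 9 libraries in 1 fit (TLR8 was added), where 15.3%, 15.1% and 13.5% of all genes were called, 0 with RefSeq transcripts alone (8 receptors tested, 10% of all genes called), and 0 to 2 when 1 library was left out. Without 1-month replicate 2 and without a fold threshold, an alternative chosen after seeing the data, it was 4 (TLR6, TLR7, TLR8 and TLR9), where 43.7% of all genes were past that threshold. Between 1 and 24 months the count of 0 became 1 with DESeq2, the exact test and all 9 libraries (TLR8), where 16.9%, 16.9% and 15.4% of all genes were called, 0 to 2 with 1 library left out, and 2 in the added alternative (28.3% of all genes). The 7 signalling genes called between 1 and 12 months became 4 with RefSeq transcripts alone (10% of all genes called) and 3 with transcripts not summed. They became 0 to 10 with 1 library left out (0% to 12.3% of all genes) and 23 in the added alternative (43.7%). The 4 between 1 and 24 months became 1 with transcripts not summed, 0 to 6 with 1 library left out (2.03% to 14% of all genes) and 13 in the added alternative (28.3%). Between 12 and 24 months 1 signalling gene (CCL5) was called by DESeq2 and by the exact test, 0 to 1 with 1 library left out, and no receptor was called in any alternative. Over all genes, where edgeR's quasi-likelihood test called 0, DESeq2 called 10, the exact test 13, and 1555 had an unadjusted p under 0.05. The causes of these shifts were not tested, except that fewer libraries or rows entered some fits.

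Same-numbered goats of different ages are different animals, and the correlation of their deviations was from -0.223 to 0.4, so the numbers do not pair the samples. With a replicate block 1 receptor was called between 1 and 12 months (TLR9, log2 fold change -2.42, adjusted p = 0.0493 by edgeR), where 6.12% of all genes were, 0 in the other comparisons, and 4 signalling genes between 1 and 12 months. The block turned the sign of uncalled values near 0: TLR2 to 0.44 and TLR4 to 0.24 between 1 and 12 months, TLR1 to 0.27 between 1 and 24 months, and TLR10 to -0.037 between 12 and 24 months.

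Of 445 refits of single receptors 24 turned the sign, none for a called value. With 1 library left out, the log2 fold change ranged between 1 and 12 months from -0.80 to 0.57 for TLR1, -0.63 to 0.91 for TLR2, -0.46 to 0.76 for TLR4 and -0.29 to 0.34 for TLR3, with 1-month replicate 2 left out at the low end and replicate 3 at the high end. At 24 months the ranges with the same 2 libraries at their ends were -0.48 to 0.86 for TLR1, -1.22 to 0.3 for TLR2, -0.13 to 1.06 for TLR4 and -0.59 to 0.019 for TLR3. Between 12 and 24 months they were -0.28 to 0.46 for TLR10, -0.23 to 0.62 for TLR5 and -0.11 to 0.35 for TLR8. With RefSeq transcripts alone TLR3 was -0.058 between 1 and 12 months and TLR9 -0.21 between 12 and 24 months. Leaving out 24-month replicate 1 brought TLR2 (-0.78, adjusted p = 0.0273 by edgeR) and TLR3 (-0.67, adjusted p = 0.0308) under the p threshold between 12 and 24 months, where 32.4% of all genes then were. TLR10 and TLR5 had 3.4 and 6.1 counts in their lowest library.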

Other observations

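Some rows of the table, 3 in all, carry a Toll-like receptor name but were not counted as members. LOC102184116 and LOC108633263, neighbours in the RefSeq annotation, have as best product match a bat protein named Toll-like receptor 2 type-1. Summed over its transcripts, LOC102184116 was at 6.63, 9.64 and 12.9 CPM at 1 month, at 2.28, 3.34 and 1.5 CPM at 12 months and at 3.86, 4.74 and 6.26 CPM at 24 months. This sum was lower at 12 months than at 1 month by edgeR's quasi-likelihood test (log2 fold change -1.97, SE 0.46, adjusted p = 0.0303), just under the fold required for a call. Its transcript with the bat protein match had 71.96, 89.93 and 57.08 expected counts at 1 month. At 12 months that transcript had 18.97, 0.00 and 27.19 counts, and at 24 months 68.86, 0.00 and 118.28. LOC108633263 was at 5.56, 6.39 and 11.9 CPM at 1 month, at 2.85, 2.09 and 3.61 CPM at 12 months and at 2.03, 4.49 and 2.35 CPM at 24 months, and its log2 fold changes of -1.41 (adjusted p = 0.0652 by edgeR) and -1.29 (adjusted p = 0.139) did not pass. Summed per gene, both were lower in each older library than in each 1-month library, unlike TLR2 itself, whose groups overlapped with 1 month. Of all genes tested, 26.9% at 12 months and 23.4% at 24 months were lower than at 1 month without overlap. The matched transcript of LOC102184116 alone had more counts in 24-month replicate 3 than in any 1-month library. The third is a new transcript that carries the symbol TLR1 with an uncharacterized product, at 0.84 to 4.9 CPM at 1 month and 0.497 to 1.85 CPM later, with which no call of TLR1 changed.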
